A study of Homo sapiens with 96 samples.

Results

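Genes of 8 SR splicing factors (SRSF1, SRSF3, SRSF4, SRSF5, SRSF6, SRSF7, SRSF10 and SRSF11) and the gene of the kinase CLK1 were followed through RNA sequencing of the human cell line hTERT-RPE1, which derives from retinal pigment epithelium and carries a telomerase transgene. They were found by symbol from a list of 10 genes, and no threshold on a measured value entered the choice. The list was drawn up with earlier results of these data known. Of the 10 listed genes 9 have a row, among 23611 gene names in the 10 expression tables, and the remaining one was not analysed here. All 9 passed the filter on low values in every table.

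The series holds 96 samples, of which 91 have a column in the tables. Sequencing covered nascent and input RNA, each from nuclei and from whole cells, in the windows labelled T0-2, T2-4, T4-6, T6-8 and T8-10 and in asynchronous cells, with 2 libraries per group. Nascent RNA of synchronised cells was sequenced after knockdown of LINC00704 (listed as MANCR in the tables), LUCAT1 or MIAT and from control cells, at points labelled S0, S2, S4 and S6, with 2 libraries per group and point. Nascent RNA of asynchronous cells was sequenced in 3 libraries per knockdown and 2 control libraries. Synchronised cells had been held with 400 uM mimosine, an iron chelator that stops cells before S phase, for 22 h. Mimosine is named for no asynchronous library, so S phase and exposure to the drug cannot be told apart. Knockdown cells received 130 to 150 pmol of an LNA GapmeR, an antisense oligonucleotide that recruits RNase H to its target RNA, and control cells a control LNA. The labels give no unit for the window and point numbers, and the cells come from 1 line. Whether libraries of a group stem from separate cultures is not stated in the labels, so each p-value rests on the spread between libraries, and that spread may be technical.

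SR proteins bind RNA and carry a region rich in arginine and serine, with which they recruit the spliceosome to exons. CLK1 is a nuclear kinase that phosphorylates this region and so releases SR proteins from nuclear speckles. Transcripts of CLK1 and of several SR genes are known to keep some introns and to stay in the nucleus, and SR genes also hold exons whose inclusion sends the mRNA to nonsense-mediated decay. The tables give 1 value per gene, so intron-retaining, decay-prone and productive transcripts of a gene are summed in it.

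Values are RPKM, reads per kilobase of the gene length that the authors listed scaled to the library's size. The listed lengths include introns for most of these genes. They lie close to the RefSeq gene span for CLK1 (ENSG00000013441, chr2:200853009-200864658, 11736 bases listed), SRSF3 (ENSG00000112081, chr6:36594362-36605600, 11248), SRSF4 (ENSG00000116350, chr1:29147743-29181900, 34245), SRSF6 (ENSG00000124193, chr20:43457896-43464243, 6320), SRSF7 (ENSG00000115875, chr2:38743599-38751494, 7896), SRSF10 (ENSG00000188529, chr1:23964347-23980327, 16124) and SRSF11 (ENSG00000116754, chr1:70205696-70253052, 47371). For SRSF5 (ENSG00000100650, chr14:69767142-69772005) 45106 bases are listed, 9.27 times the RefSeq span, and for SRSF1 (ENSG00000136450, chr17:57989038-58007246) 3987 bases are listed against a span of 18209. Levels per length of these last 2 genes therefore cannot be placed against the other genes, while differences between groups within a gene do not depend on the length. Spans are those of RefSeq on GRCh38.p14. SRSF4 shares 14205 bases with MECR, and SRSF1 and SRSF5 share 1997 and 572 bases with lncRNAs (LOC101929185 and LOC100289511), whose reads may be counted with theirs.

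The promoters of 5 genes are shown because the group differences below concern them: SRSF1 and SRSF7 were lower in some window and knockdown libraries, SRSF10 and SRSF11 were higher in LUCAT1 knockdown cells, and CLK1 had one of the highest shares in nuclear RNA. Each runs 5′ to 3′ over the 250 bases before the start of the gene (RefSeq, GRCh38.p14). Capitals mark matches on either strand to the GC box GGGCGG, to TGACG, the core of a cAMP response element, or to the E2F motif TTTNNCGC.
SRSF1 (chr17:58007247-58007496, minus strand): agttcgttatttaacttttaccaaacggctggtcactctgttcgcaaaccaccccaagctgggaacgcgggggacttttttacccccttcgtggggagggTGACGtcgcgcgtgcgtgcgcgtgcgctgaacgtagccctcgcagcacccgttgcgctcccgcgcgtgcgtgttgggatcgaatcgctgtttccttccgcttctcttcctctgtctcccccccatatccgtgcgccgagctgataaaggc
SRSF7 (chr2:38751495-38751744, minus strand): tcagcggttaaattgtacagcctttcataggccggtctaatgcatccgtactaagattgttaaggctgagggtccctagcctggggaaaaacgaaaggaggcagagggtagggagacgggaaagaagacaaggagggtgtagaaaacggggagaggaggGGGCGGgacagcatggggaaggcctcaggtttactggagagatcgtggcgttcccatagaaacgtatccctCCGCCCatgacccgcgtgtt
SRSF10 (chr1:23980328-23980577, minus strand): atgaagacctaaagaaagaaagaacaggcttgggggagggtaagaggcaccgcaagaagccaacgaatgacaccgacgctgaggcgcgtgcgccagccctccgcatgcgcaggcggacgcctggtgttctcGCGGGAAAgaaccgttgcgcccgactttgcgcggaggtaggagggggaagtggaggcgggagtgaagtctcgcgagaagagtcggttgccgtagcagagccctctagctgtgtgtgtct
SRSF11 (chr1:70205446-70205695, plus strand): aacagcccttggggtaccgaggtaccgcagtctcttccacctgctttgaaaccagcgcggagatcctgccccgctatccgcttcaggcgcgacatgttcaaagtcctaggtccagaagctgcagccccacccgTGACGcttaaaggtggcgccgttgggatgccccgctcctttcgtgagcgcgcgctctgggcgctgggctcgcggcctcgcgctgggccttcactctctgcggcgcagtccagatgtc
CLK1 (chr2:200864659-200864908, minus strand): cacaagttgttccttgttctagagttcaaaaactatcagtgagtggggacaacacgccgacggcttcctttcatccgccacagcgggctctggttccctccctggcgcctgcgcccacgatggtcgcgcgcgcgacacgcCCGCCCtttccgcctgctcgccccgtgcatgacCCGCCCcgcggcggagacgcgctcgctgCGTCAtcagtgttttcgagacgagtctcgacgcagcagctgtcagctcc
SRSF7 held 2 GC boxes, CLK1 held 2 GC boxes and 1 TGACG, SRSF1 and SRSF11 held 1 TGACG each, and SRSF10 held 1 E2F motif. Of 35116 RefSeq promoters of this length, 42.6% held GGGCGG, 21.2% TGACG and 5.92% TTTNNCGC on either strand, and no match of the 3 motifs overlaps another in these 5 windows. The CCAAT box CCAAT (32.01% of promoters), TATAAA (10.7%) and the ETS motif CCGGAAG (8.52%) were not found in these 5 windows. RefSeq lists a second start for SRSF7, SRSF11 and CLK1, whose windows are not shown; those of SRSF7 and SRSF11 hold TATAAA. A match is a description of letters and no evidence of binding.

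Library sizes recovered from the values ran from about 6680000 to 53600000 reads in 108 of the 111 library columns of the tables and could not be recovered in 3. In those 108 columns single members had between 179 and 19134 reads in a library, so counting error alone was small beside the spread between libraries. The targeted RNAs checked the labels. In synchronised cells LUCAT1 had 0.133 to 0.379 RPKM in its knockdown and 0.440 to 0.994 in control libraries, MANCR 0.550 to 1.61 and 1.89 to 4.04, and MIAT 0.0718 to 0.221 and 0.243 to 0.323, and in asynchronous cells the knockdown and control libraries also lay apart for each target. There the targets also differed in other knockdowns. MIAT had 0.0936 to 0.258 RPKM in LUCAT1 knockdown and 0.357 to 0.393 in control libraries. LUCAT1 had 0.784 to 1.07 RPKM in LINC00704 knockdown and 0.670 to 0.834 in MIAT knockdown, against 0.452 to 0.478 in control libraries. In synchronised cells the ranges overlapped those of control libraries. LUCAT1 had 0.894 to 1.72 RPKM in LINC00704 knockdown and MIAT 0.0958 to 0.334 in LUCAT1 knockdown. Of the pigment epithelium markers, OTX2 had 0.732 to 2.64 RPKM in whole-cell input libraries and RPE65, a defining gene of mature pigment epithelium, 0 to 0.169, while the epithelial keratin KRT18 had 4.90 to 25.2. Markers of other cell types were near 0 except the haemoglobin gene HBB, which reached 72.4 RPKM in 1 whole-cell nascent library. In whole-cell input RNA the window libraries numbered 1 and those numbered 2 stood apart along the first principal component, which held 72.7% of the variance. In the synchronised LUCAT1 table the S0 and S2 knockdown libraries headed 2 lay apart on that component, at 61.6 and 49.9 against -44.9 to 17.9 for the other 14 libraries.

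All 9 genes were well expressed. Their mean levels lay between the 72.8th and the 99.1st percentile of all listed genes, over the 10 tables. The lowest was that of SRSF5, whose listed length deviates. Apart from SRSF1 and SRSF5 the lowest was the 80.5th, of SRSF11 in the asynchronous LINC00704 table. In nuclear input RNA SRSF6, which binds splicing enhancers, averaged 14.6 RPKM over the 12 libraries, SRSF3, the smallest SR protein, 13.2, CLK1 9.69, SRSF10 9.37, SRSF7 8.46, SRSF4 6.11 and SRSF11 5.94. SRSF1, the founding member of the family, averaged 12.1 RPKM and SRSF5 2.93 on their deviating lengths. Neighbours in this order overlapped over the libraries: SRSF6 ranged over 10.4 to 20.3, SRSF3 over 7.99 to 20.1, CLK1 over 6.03 to 13.6 and SRSF11 over 4.31 to 8.96 RPKM. In whole-cell input RNA the order of SRSF3, SRSF6, SRSF7, SRSF10, CLK1, SRSF4 and SRSF11 ran from 18.5, 15.1 and 10.5 RPKM for the first 3 to 6.72, 5.49, 3.99 and 3.002 for the others. CLK1 was thus below SRSF7 and SRSF10 in whole-cell input RNA, while in nuclear input RNA its mean was above that of SRSF7 and close to that of SRSF10, whose median was higher (9.58, against 9.54 RPKM for CLK1).

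The share of each transcript pool that was nuclear was described by the ratio of nuclear to whole-cell RPKM. Both kinds of table were scaled separately, so a ratio has meaning only beside that of other genes, and it was not tested. In input RNA CLK1 and SRSF11, an SR-related protein, had mean log2 ratios of 0.96 and 0.97 over the 6 conditions, at the 97.7th and 97.8th percentile of 8951 genes, whose median was -0.10 (quartiles -0.62 and 0.30). CLK1 thus stood 2.09-fold above the median gene. SRSF5, which acts on exonic enhancers, had 0.64, SRSF4, a long member of the family, 0.62 and SRSF10, a factor that represses splicing when dephosphorylated, 0.56. SRSF6 had 0.10 and SRSF7 -0.09, near the median. SRSF3 and SRSF1 lay below it at -0.26 and -0.77, SRSF1 at the 19.6th percentile. In all 7 of 9 genes were above the median of all genes, and their own median was 0.56.

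The 6 conditions moved these ratios but mostly kept their side of the median. CLK1 ranged between 0.28 at T0-2 and 1.47 at T6-8 with 0.84 in asynchronous cells, and SRSF11 between 0.69 at T8-10 and 1.40 at T2-4 with 0.74 in asynchronous cells. Both were above the median gene in every condition. SRSF1 ranged between -1.08 at T2-4 and -0.41 at T4-6 in the windows with -1.15 in asynchronous cells, below the median gene in all 6. SRSF4 had 0.52 to 0.91 in the windows and -0.07 in asynchronous cells, where it stood at the 55.0th percentile.

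Ratios of whole genes also followed the listed length, and the places of SRSF1 and SRSF5 depended on which length was taken. Split into 4 classes by length, genes had median nuclear over whole-cell input ratios of -0.73, -0.32, 0.00 and 0.33 in order of increasing length. Set against the median of its own length class, CLK1 stood 1.28 higher on the log2 scale, SRSF11 0.97, SRSF10 0.88, SRSF6 0.83, SRSF7 and SRSF5 0.64 and SRSF4 0.62. SRSF3 was at 0.05 and SRSF1 at -0.04, level with genes of their listed length. For the 2 genes whose listed length departs from the span, the class of the RefSeq span gave 1.37 for SRSF5, above CLK1, and -0.46 for SRSF1. Among genes of at least 5 RPKM on average in both tables, which are fewer and higher, CLK1 stood 1.79 and SRSF10 1.38 over the median gene, SRSF3 changed side to 0.56, and SRSF1 to 0.05. With the libraries numbered 1 alone CLK1 stood 0.76 over the median gene, and with those numbered 2 alone 1.37. SRSF7 (-0.44 with the libraries numbered 1 and 0.46 with those numbered 2), SRSF3 (-0.67 and 0.35) and SRSF6 (-0.10 and 0.51) changed side, so their places about the median gene depend on the library number. SRSF5 had 0.38 and 1.10.

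**Figure D1:**
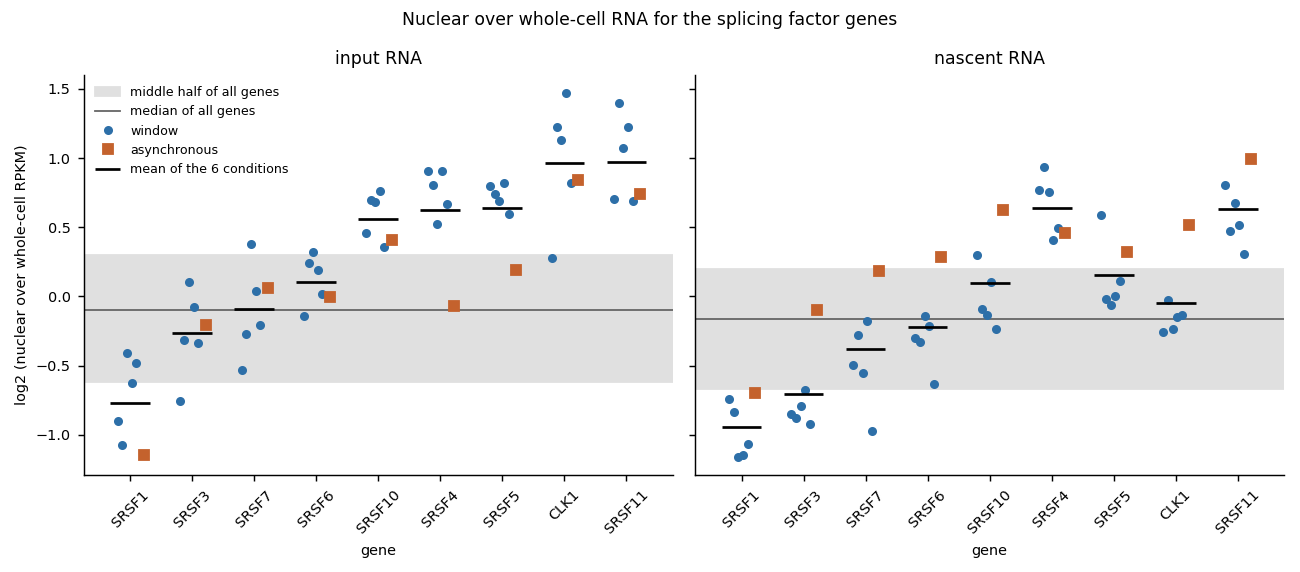
Log2 of nuclear over whole-cell RPKM (vertical axis) for the 9 genes (horizontal axis) in input RNA (left) and nascent RNA (right). Dots are the 5 windows, squares asynchronous cells, black lines the mean of the 6 conditions, the grey line the median and the grey band the quartiles of all genes. CLK1 and SRSF11 have the highest means in input RNA, 0.96 and 0.97, and CLK1 has a mean of -0.05 in nascent RNA.

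In nascent RNA the order was similar except for CLK1. SRSF4 and SRSF11 had the highest nuclear over whole-cell ratios, 0.64 and 0.63, at the 94.6th and 94.4th percentile of 8957 genes (median -0.16, quartiles -0.67 and 0.20). CLK1 had -0.05, at the 57.1st percentile, with -0.26 to -0.03 in the windows and 0.52 in asynchronous cells, and SRSF5 and SRSF10 had 0.16 and 0.10. SRSF6, SRSF7, SRSF3 and SRSF1 had -0.22, -0.38, -0.70 and -0.94. In all 5 of 9 genes were above the median gene. Among genes of at least 5 RPKM on average in both tables, SRSF6, SRSF7 and SRSF3 changed side, standing 0.71, 0.55 and 0.23 over the median gene, SRSF1 stood at -0.01 and CLK1 at 0.89.

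CLK1 lay far from the median gene in nascent over input RNA, with opposite signs in nuclei and whole cells when the 6 conditions were averaged. In nuclei its log2 ratio of nascent to input RPKM was -0.38, at the 11.1st percentile of 9299 genes (median -0.04), and in whole cells 0.63, at the 98.4th percentile of 9138 genes (median 0.04). In asynchronous cells alone its whole-cell ratio was -0.10, at the 52.4th percentile and 0.02 over the median gene, while the 5 windows had 0.49 to 1.11. SRSF1 was low in both, at -0.32 and -0.15. The other 7 genes lay between -0.15 and 0.04 in nuclei and between -0.03 and 0.40 in whole cells, and 4 and 7 of the 9 genes were above the median gene. The whole-cell values rest on the libraries numbered 2: with those numbered 1 alone 3 of 9 genes were above the median gene and CLK1 stood 0.26 over it, against 8 of 9 and 1.01 with those numbered 2 alone. In nuclei 2 of 9 were above it with the libraries numbered 1 and 6 with those numbered 2, and CLK1 stood at -0.53 and -0.16.

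Other genes of RNA processing give the setting for the nuclear over whole-cell ratio in input RNA. All 7 tested genes of SR protein kinases and the SR protein importer were above the median gene, with a list median of 0.48. Of other SR and SR-related proteins 10 of 14 were above it (median 0.46), and of mRNA export and decay factors 8 of 12 (0.30). The hnRNP and PTB genes had 10 of 21 (-0.16) and the core spliceosome 4 of 25 (-0.53). As references, 3 of 3 nuclear RNAs lay at 1.43 to 2.26 and 5 of 5 mRNAs of the cytosol at -2.05 to -0.47.

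SRSF1 was lower in the windows than in asynchronous cells in each kind of RNA, and the difference passed the test in nuclear input RNA. There its 10 window libraries had 7.45 RPKM at the lowest, 10.6 at the median and 15.1 at the highest, and the asynchronous libraries 17.2 and 18.9. The groups did not overlap. On log2(RPKM + 0.25), the scale of all differences given here, SRSF1 fell by 0.74 ± 0.16 (SE; 10 and 2 libraries; limma, Benjamini-Hochberg adjusted p = 0.0432). It was the only one of 9 genes called, against 4.57% of all 9633 genes tested. In bulk samples fewer cells of a kind and less RNA per cell cannot be told apart. The call did not survive leaving out any of the 12 libraries (adjusted p between 0.0521 and 0.313) or quantile normalization (-0.44, adjusted p = 0.16).

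In nuclear input RNA the library numbers pair the samples, and with the number as a block more of these genes were called, against 34.4% of all genes. SRSF1 (adjusted p = 0.00209), SRSF7, an SR protein with a zinc knuckle that also acts in mRNA export (-0.79 ± 0.13, limma adjusted p = 0.00185), SRSF3, which acts with it in export (-0.56 ± 0.10, 0.00289), and SRSF6 (-0.31 ± 0.10, 0.0451) were lower. CLK1 was higher by 0.40 ± 0.10 (0.0144). Without the block these 4 genes had adjusted p of 0.229, 0.245, 0.662 and 0.446. SRSF7 had 5.27, 7.40 and 11.4 RPKM (lowest, median and highest) in the windows and 14.0 and 11.8 in asynchronous cells, with no overlap. CLK1 had 7.46, 9.88 and 13.6 RPKM in the windows and 9.21 and 6.03 in asynchronous cells. It was higher in each window than in the asynchronous library of the same number, by 0.31 on average among libraries numbered 1 and 0.49 among those numbered 2.

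The same direction was seen for SRSF1 and SRSF7 in nuclear nascent RNA without passing the test, where 4.5% of 9784 genes were called and 0 of these 9. At an unadjusted p under 0.05 there were 3 of the 9, beside 1987 of all 9784 genes. SRSF1 had 4.55, 8.60 and 11.4 RPKM (lowest, median and highest) in the windows and 21.9 and 14.0 in asynchronous cells, a difference of -1.07 ± 0.29 (limma adjusted p = 0.0675, and 0.0301 without the T4-6 library numbered 1). SRSF7 had 5.04, 8.12 and 9.20 RPKM in the windows and 15.7 and 10.3 in asynchronous cells (-0.73 ± 0.26, adjusted p = 0.143). SRSF3 was lower too, with 8.16, 11.3 and 15.1 RPKM in the windows and 24.0 and 13.3 in asynchronous cells, which overlap. Its difference was -0.90 within number 1 and -0.35 within number 2. SRSF6 averaged 13.4 RPKM in the windows and 19.7 in asynchronous cells (-0.56 ± 0.25, limma adjusted p = 0.253). CLK1 averaged 7.64 and 5.59 RPKM (0.45 ± 0.20, adjusted p = 0.251).

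In whole cells none of the 9 genes was called, in nascent RNA against 0.406% of 10096 genes and in input RNA against 0.0305% of 9825. At an unadjusted p under 0.05 there were 2 and 1 of the 9, beside 1387 and 865 of all genes. In nascent RNA the largest difference was that of CLK1, with 5.59, 8.81 and 14.4 RPKM (lowest, median and highest) in the windows and 3.54 and 3.99 in asynchronous cells. Each window library exceeded both asynchronous ones (1.13 ± 0.36, limma adjusted p = 0.211; 95% interval 0.33 to 1.93). In input RNA, by contrast, CLK1 had 1.73, 5.37 and 12.02 RPKM in the windows and 3.49 and 4.68 in asynchronous cells, which overlap. SRSF1 in whole-cell input RNA had 9.93, 17.1 and 25.7 RPKM in the windows and 39.99 and 40.35 in asynchronous cells, with no overlap (-1.18 ± 0.42, adjusted p = 0.434). In whole-cell nascent RNA it had 11.7, 17.0 and 21.5 RPKM in the windows against 44.9 and 18.2, so that the size of its difference rests on the asynchronous library numbered 1.

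**Figure D2:**
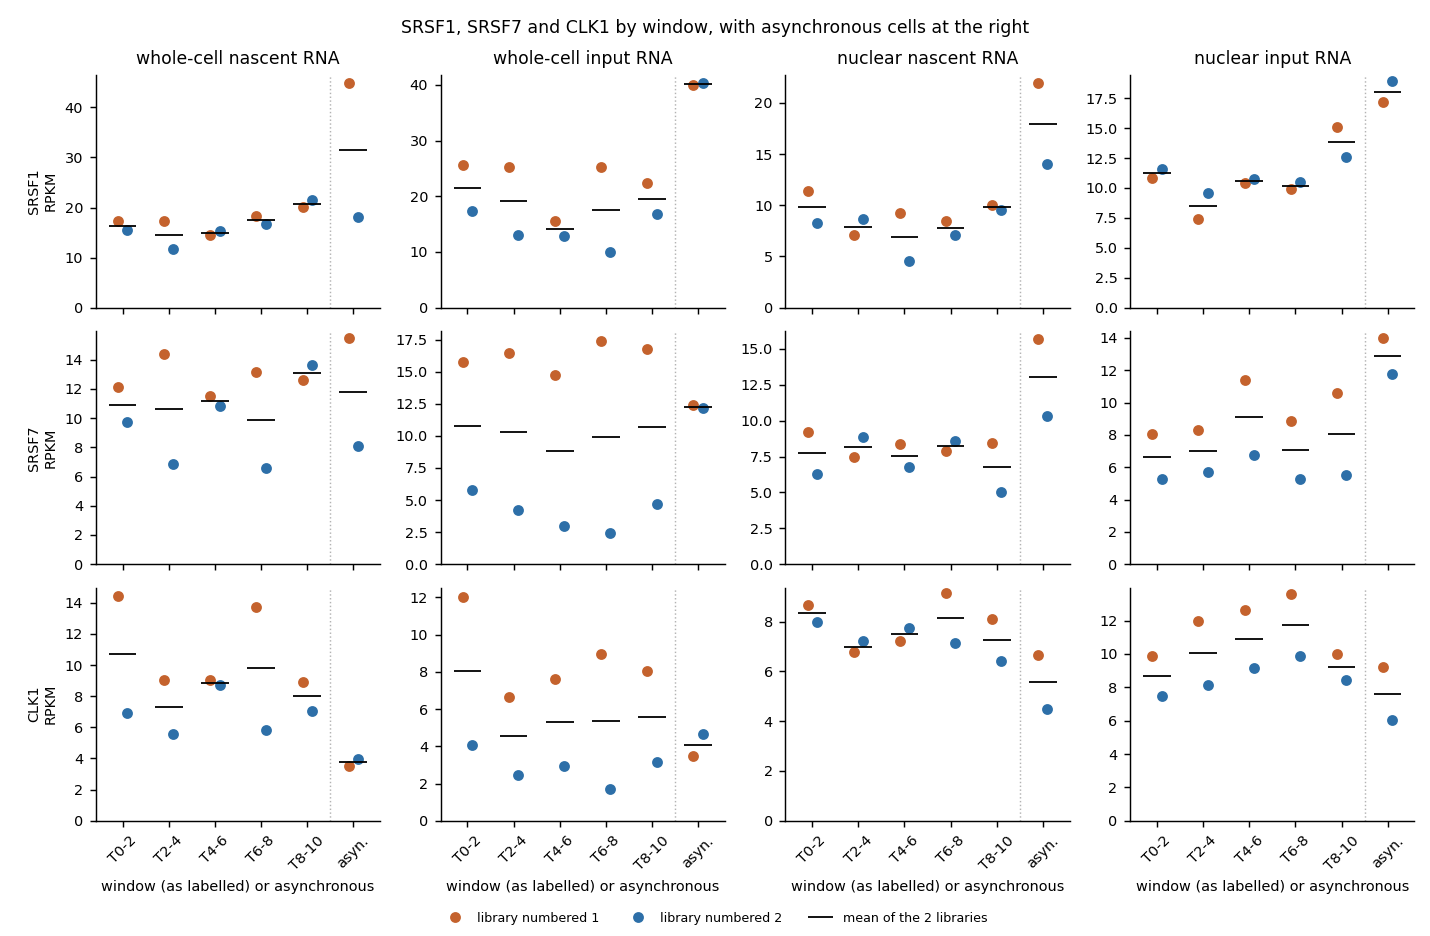
RPKM (vertical axes, each starting at 0) of SRSF1, SRSF7 and CLK1 in the 4 kinds of RNA, by window as labelled with asynchronous cells at the right of each panel. Dots are single libraries, coloured by library number, and lines the mean of 2. SRSF1 in nuclear input RNA lies at 7.45 to 15.1 in the windows and at 17.2 and 18.9 in asynchronous cells; SRSF7 in whole-cell input RNA splits by library number.

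Genes used as fraction references moved with these results. In nuclear input RNA 2 of 5 tested mRNAs of the cytosol fell in the windows, the ribosomal protein gene RPL4 (-1.36 ± 0.19, limma adjusted p = 0.0102) and the elongation factor gene EEF1A1 (-1.56 ± 0.24, adjusted p = 0.0125), with a list median of -0.83 against 0.00 for all genes. The summed RPKM of that list was 287 to 442 in the windows and 322 to 333 in asynchronous cells, and no gene of it was at 0. The summed nuclear RNAs had 649 to 1291 in the windows and 630 to 722 in asynchronous cells (median difference 1.29, 0 of 3 called). Markers of epithelium and the immortalised line were KRT8, KRT18, TJP1 and TERT. They summed to 6.57 to 14.4 RPKM in the windows and to 23.9 to 26.9 in asynchronous cells. Of them KRT8 fell (-1.12 ± 0.24, limma adjusted p = 0.0396). In nuclear nascent RNA RPL4 and EEF1A1 fell too (-1.54 and -1.46, limma adjusted p = 0.0138 and 0.0235), and the nuclear RNA MEG3 rose (1.13, 0.0233). The part of any of these in the SRSF1 and SRSF7 differences was not tested.

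Among other splicing genes, the calls in the windows were downward, beside 440 of all genes called in each nuclear table (4.57% in input RNA, 251 of them lower, and 4.5% in nascent RNA, 249 lower). In nuclear input RNA 2 of 21 hnRNP and PTB genes fell, HNRNPF (-0.77 ± 0.15, limma adjusted p = 0.0304) and HNRNPU (-0.69 ± 0.16, 0.0490), with a list median of -0.53. In nuclear nascent RNA HNRNPF fell (-0.84, adjusted p = 0.0419; 1 of 21, median -0.53), as did 3 of 25 core spliceosome genes, EFTUD2 (-0.70 ± 0.13, 0.0235), SF3A3 (-0.63, 0.0438) and SF3B3 (-0.69, 0.0470), with a list median of -0.40. For 14 other SR and SR-related genes, 7 kinase and importer genes and 12 export and decay genes, list medians lay between -0.18 and 0.09. None of them was called in either nuclear table for the mean of the 5 windows. In single windows SRSF8 was lower in nuclear input RNA at T0-2 (-1.06 ± 0.19, limma adjusted p = 0.0243, against 3.71% of all genes called). At T2-4 it had -0.995 ± 0.19 (0.0315, against 2.7%). In nuclear nascent RNA PRPF19 and EFTUD2 were lower at T0-2 (-0.97 and -0.77, adjusted p = 0.0368 and 0.0469, against 3.37%). In both whole-cell tables no gene of these 5 lists was called.

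The 2 libraries of a window often differed more than windows did from asynchronous cells. In whole-cell input RNA the window libraries numbered 1 exceeded those numbered 2 by a mean log2 difference of 2.00 for SRSF7, 1.94 for SRSF3, 1.61 for SRSF6, 1.53 for CLK1, 1.41 for SRSF10, 1.05 for SRSF5, 0.95 for SRSF11 and 0.70 for SRSF1, while SRSF4 had -0.61. The median over all tested genes was -0.06. SRSF7 showed it in full: its window libraries had 14.7 to 17.4 RPKM when numbered 1 and 2.46 to 5.77 when numbered 2, and the asynchronous libraries 12.4 and 12.2. Its difference from asynchronous cells was therefore 0.38 within number 1 and -1.60 within number 2. CLK1 likewise had 1.22 and -0.70, whereas SRSF1 had -0.83 and -1.54. In nuclear input RNA the gap was smaller, between -0.12 for SRSF4 and SRSF5 and 0.73 for SRSF10 (median of all genes -0.11), and SRSF1 had -0.06. In nuclear nascent RNA it ran from -0.08 to 0.33 and in whole-cell nascent RNA from -0.24 for SRSF5 to 0.87 for SRSF10. What the library numbers stand for is not stated in the labels.

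**Figure D3:**
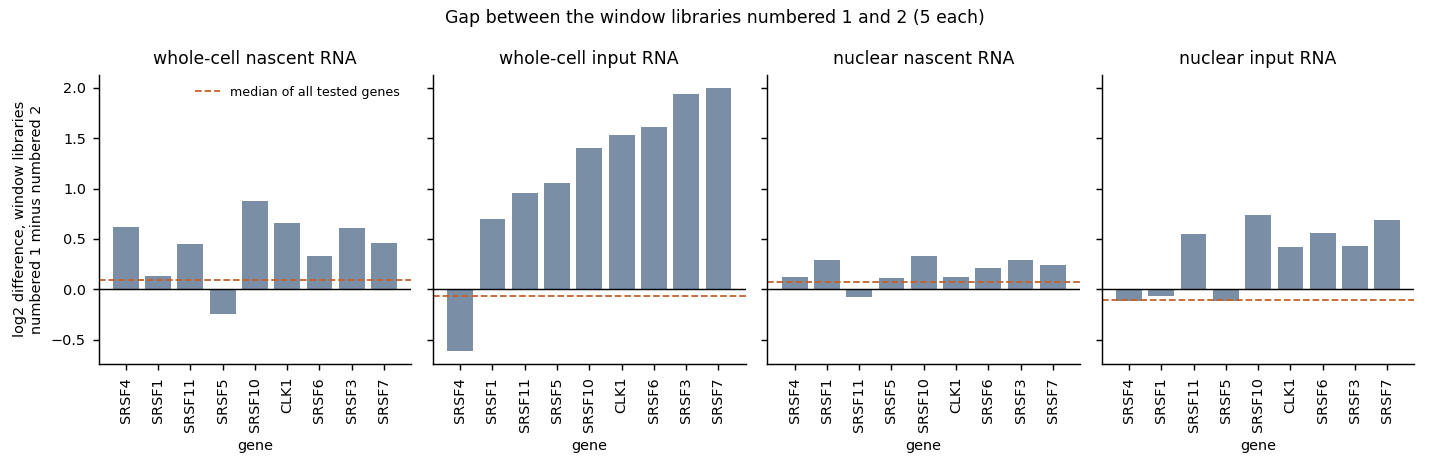
Mean log2 difference between the 5 window libraries numbered 1 and the 5 numbered 2 (bars, vertical axis) for each of the 9 genes (horizontal axis) in the 4 kinds of RNA. Dashed lines mark the median of all tested genes. In whole-cell input RNA the bars reach 2.00 for SRSF7, and SRSF4 alone is negative there, at -0.61.

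No difference among the 5 windows was called for any of the 9 genes in the fits without the block, with 0 genes of 10096 called in whole-cell nascent RNA, 0 of 9825 in whole-cell input RNA, 0.0204% in nuclear nascent RNA and 0.218% in nuclear input RNA (limma F-tests; 313, 126, 956 and 624 genes at an unadjusted p under 0.05). Between T8-10 and T0-2 none was called either, against 0%, 0%, 0.358% and 0.415% of all genes in the same order. The gene nearest to a change was SRSF3 in nuclear input RNA. It had 17.3 and 11.3 RPKM at T8-10 and 10.1 and 7.99 at T0-2, which do not overlap (0.62 ± 0.31, adjusted p = 0.462). With the number as a block this difference passed (0.62 ± 0.13, limma adjusted p = 0.0122, against 22.2% of all genes called), as did SRSF3 among the windows (adjusted p = 0.0318, against 13.1%). In single windows against asynchronous cells, 1 of the 9 genes was called, SRSF1 at T2-4 in nuclear input RNA, with 7.45 and 9.59 RPKM against 17.2 and 18.9 (-1.07 ± 0.21, adjusted p = 0.0398; 2.7% of all genes).

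LUCAT1 knockdown in synchronised cells came with higher SRSF10 and SRSF11. SRSF10 had 6.70, 9.31 and 17.1 RPKM (lowest, median and highest of 8) in knockdown libraries and 3.99, 6.47 and 7.35 in control libraries, a rise of 0.70 ± 0.19 (limma adjusted p = 0.0195). SRSF11 had 3.11, 4.09 and 7.77 RPKM in knockdown libraries and 2.00, 2.89 and 3.82 in control libraries, a rise of 0.65 ± 0.19 (adjusted p = 0.0270). For both genes the lower knockdown libraries overlapped the higher control libraries. SRSF7 followed with 0.55 ± 0.21 (adjusted p = 0.0657), CLK1 with 0.44 ± 0.20 (0.113), SRSF3 with 0.39 ± 0.16 (0.0901) and SRSF4 with 0.36 ± 0.15 (0.0967). SRSF1, SRSF5 and SRSF6 had 0.18, 0.10 and 0.02. Thus 2 of 9 genes were called, against 27.2% of all 9870 genes, and their median was 0.39 against 0.11 for all genes.

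These calls rest on the S0 and S2 knockdown libraries headed 2, which stood apart from the rest. Both had less LUCAT1 than the other knockdown library of their point, 0.133 against 0.337 RPKM at S0 and 0.178 against 0.379 at S2. The S6 knockdown library headed 2, which did not stand apart, had 0.168 RPKM of LUCAT1. The part of knockdown depth in the rises was not tested. The S0 and S2 libraries headed 2 also held 0.0958 and 0.122 RPKM of MIAT, against 0.166 to 0.334 in the other knockdown libraries. Control libraries had 0.24 to 0.32 RPKM of MIAT. The part of MIAT was not tested either. The S0 and S2 knockdown libraries headed 2 had 17.07 and 15.004 RPKM of SRSF10 against 6.70 to 10.98 in the other knockdown libraries, and 7.77 and 7.37 RPKM of SRSF11 against 3.11 to 4.51. Without both, SRSF10 had 0.48 (limma adjusted p = 0.0862) and SRSF11 0.41 (adjusted p = 0.116), none of the 9 genes was called, and 1034 of 9563 genes were called in all. Leaving out single libraries gave adjusted p of up to 0.0525 for SRSF10 and 0.0682 for SRSF11. With median scaling SRSF11 had 0.49 (adjusted p = 0.0613). A difference of the knockdown effect among the 4 points was called for none of the 9 genes (0% of all genes, 39 at an unadjusted p under 0.05).

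**Figure D4:**
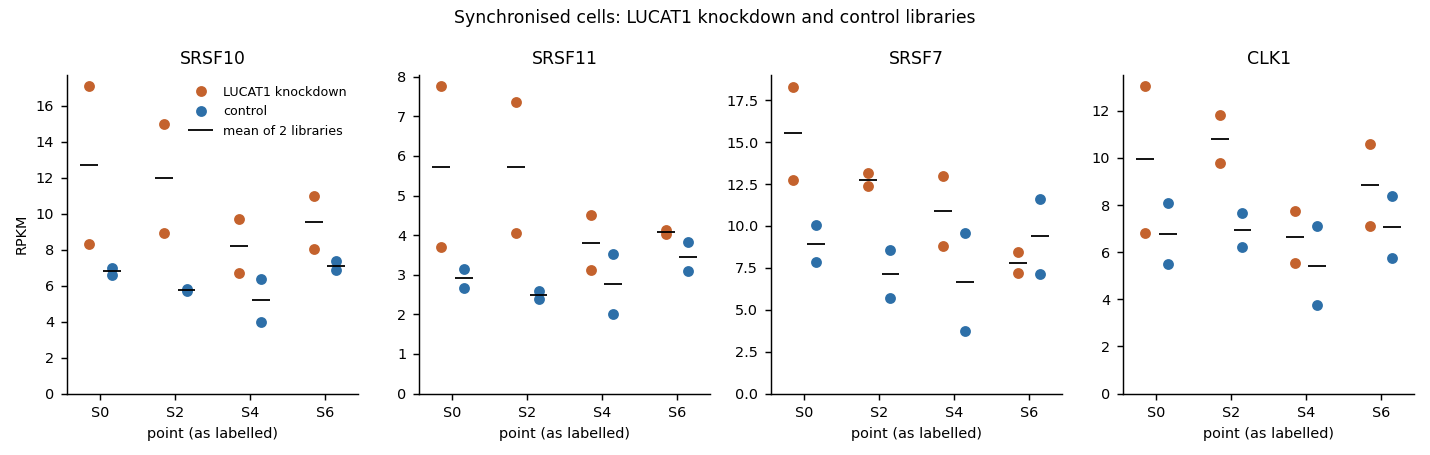
RPKM (vertical axes, each starting at 0) of SRSF10, SRSF11, SRSF7 and CLK1 in LUCAT1 knockdown (left of each pair) and control libraries of synchronised cells at the points S0 to S6 as labelled. Dots are libraries and lines the mean of 2. At S0 and S2 one knockdown library lies far above the other for SRSF10, at 17.07 and 15.004 RPKM.

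Calls among other splicing genes after LUCAT1 knockdown in synchronised cells were upward. They stand beside 27.2% of all 9870 genes called, 1879 higher and 801 lower, and nothing particular to splicing genes is read from them. They were 5 of 14 other SR and SR-related genes, among them RSRC2 (0.58 ± 0.14, limma adjusted p = 0.0147), SRSF8 (0.44, 0.0151) and the splicing activator TRA2B (0.63, 0.0181), and 2 of 7 kinase and importer genes, the SR protein importer TNPO3 (0.45, 0.0179) and PRPF4B (0.42, 0.0469). Of 21 hnRNP and PTB genes 4 rose, led by HNRNPF (0.74, 0.0118), and of 25 core spliceosome genes 6, led by SF3A3 (0.48, 0.0153). Of 12 export and decay genes 5 rose, led by SMG1, the kinase of nonsense-mediated decay (0.91 ± 0.11, 0.000412). Among reference and marker genes, the actin gene ACTB (-0.78, 0.0224), KRT8 (-0.52, 0.0492) and the nuclear RNA MEG3 (-0.37, 0.0313) fell. RPL4 (0.49, 0.0414) and TERT (0.54, 0.0467) rose. The mRNAs of the cytosol had 779 to 1251 summed RPKM in knockdown and 930 to 1422 in control libraries. Their part in the result was not tested.

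LINC00704 knockdown left no called difference among the 9 genes in synchronised cells, against 0.0212% of 9442 genes. At an unadjusted p under 0.05 there was 1 of the 9, beside 1559 of all genes. SRSF11 had 3.07, 3.77 and 5.78 RPKM (lowest, median and highest) in knockdown libraries and 2.00, 2.89 and 3.82 in control libraries (0.41 ± 0.15, limma adjusted p = 0.269), and CLK1 averaged 8.26 and 6.56 RPKM (0.33 ± 0.19, 0.378). The knockdown effect did not pass among the points either (0% of all genes, 37 at an unadjusted p under 0.05). In control cells none of the 9 differed between S6 and S0, against 0.0741% of all genes; the largest difference was that of SRSF5 (3.19 and 3.01 RPKM at S6, 2.395 and 2.504 at S0; 0.31 ± 0.22, adjusted p = 0.851). The synchronised tables share their 8 control libraries, so the knockdowns are not independent of each other.

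MIAT knockdown in synchronised cells also gave no call among the 9 genes, against 7.63% of 9528 genes. At an unadjusted p under 0.05 there was 1 of the 9, beside 2357 of all genes. SRSF5 had 0.956, 1.98 and 2.502 RPKM (lowest, median and highest) in knockdown libraries and 1.84, 2.55 and 3.19 in control libraries (-0.46 ± 0.17, limma adjusted p = 0.109). The other differences lay between -0.16 and 0.24. At S6 the differences were -0.99 for SRSF5, -0.98 for SRSF7, -0.90 for SRSF6, -0.76 for SRSF10, -0.65 for SRSF11, -0.64 for CLK1 and -0.63 for SRSF3. Their limma adjusted p lay between 0.207 and 0.426, while SRSF1 and SRSF4 had differences of -0.09 and 0.04. Of all genes 1.35% were called at S6, and none of these 9. The S6 knockdown library headed 2 had the most extreme position of the table on the first principal component, 56.9. It also had the most MIAT of the knockdown libraries, 0.221 RPKM, against 0.0718 in the other S6 knockdown library. A difference of the knockdown effect among the points was not called for any gene (0%, 110 at an unadjusted p under 0.05). Of the other lists, SNRPA, a U1 snRNP protein (-0.58 ± 0.13, limma adjusted p = 0.0155), fell and SMG1 (0.43 ± 0.10, 0.0196) rose. Of the nuclear reference RNAs MEG3 fell (-0.41 ± 0.11, 0.0455).

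In asynchronous cells MIAT knockdown came with lower SRSF1 and SRSF7. SRSF7 had 15.8, 16.2 and 17.8 RPKM in knockdown libraries and 20.2 and 23.9 in control libraries, a log2 change of -0.40 ± 0.12 (limma adjusted p = 0.0309). SRSF1 had 35.5, 43.6 and 41.7 RPKM in knockdown libraries and 48.5 and 59.2 in control libraries (-0.42 ± 0.14, adjusted p = 0.0485). Neither gene overlapped between the groups. The 2 calls of 9 stand beside 43.7% of all 9200 genes called, and the median of the 9 was -0.07 against -0.12 for all genes. CLK1 had 3.62, 3.55 and 3.83 RPKM against 2.98 and 3.53 (0.17 ± 0.10, adjusted p = 0.228), and SRSF11 3.48, 3.66 and 3.87 against 2.96 and 3.47 (0.18 ± 0.10, 0.197).

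Neither call was stable. SRSF1 lost it with a pseudocount of 1 (limma adjusted p = 0.0504), with no filter (0.0624) and on leaving out any of the 5 libraries (0.0631 to 0.251, differences of -0.56 to -0.27). SRSF7 lost it without either control library (0.0565 and 0.189) and without the knockdown library numbered 2 (0.0895). With median scaling SRSF1 had -0.35 (adjusted p = 0.0827) and SRSF7 -0.33 (0.0547). With quantile normalization both were close to 0, at -0.14 (0.398) and -0.03 (0.854), and SRSF11 (0.38, 0.0354) and CLK1 (0.37, 0.0366) were called as higher. In the authors' deposited table SRSF7 had a log2 fold change of -0.41 (FDR 0.00837), SRSF1 -0.42 (FDR 0.0182) and SRSF10 0.21 (FDR 0.0440), with 56.8% of all genes under an FDR of 0.05. The counts of the other lists stand beside 43.7% of all 9200 genes called here, 2861 lower and 1155 higher. Of them, 4 of 14 SR and SR-related genes fell, among them SRSF9 (-0.77 ± 0.12, limma adjusted p = 0.00315), and 7 of 21 hnRNP and PTB genes. Of 26 core spliceosome genes 12 fell, led by the U1 snRNP gene SNRNP70 (-0.84 ± 0.10, 0.00149), and 2 rose. Of 12 export and decay genes 3 fell, led by the export adaptor gene ALYREF (-1.06 ± 0.15, 0.00238). The epithelial keratin genes KRT8 and KRT18 fell too (-0.71 and -0.60), as did ACTB (-0.51), while the nuclear RNA NEAT1 rose (0.97). The summed markers of epithelium and the immortalised line had 49.5 to 56.9 RPKM in knockdown and 76.8 to 82.0 in control libraries. The part of these genes in the result was not tested.

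LUCAT1 knockdown in asynchronous cells gave no call among the 9 genes, against 0.209% of 9550 genes. At an unadjusted p under 0.05 there were 2 of the 9, beside 2100 of all genes. SRSF1 had 41.6, 35.1 and 33.2 RPKM in knockdown libraries and 50.3 and 61.3 in control libraries (-0.60 ± 0.20, limma adjusted p = 0.175). SRSF3 had 24.2, 24.5 and 17.8 RPKM against 29.0 and 39.0 (-0.61 ± 0.24, 0.211). SRSF6 and SRSF7 had differences of -0.46 and -0.42. CLK1 spread widely, with 2.78, 7.91 and 5.02 RPKM in knockdown libraries and 3.08 and 3.66 in control libraries (0.49 ± 0.40, 0.475). The knockdown library numbered 1 had 0.311 RPKM of LUCAT1, against 0.128 and 0.124 in the other knockdown libraries and 0.469 and 0.495 in control libraries. On the first principal component it lay at -15.6, the other knockdown libraries at 42.2 and 34.7 and the control libraries at -31.9 and -29.3. Without it, SRSF1 (-0.70, limma adjusted p = 0.00983), SRSF3 (-0.68, 0.0395), SRSF5 (0.61, 0.0313) and CLK1 (0.86, 0.0215) were called, with 4563 of 9432 genes. The authors' deposited table lists the same 4 genes under an FDR of 0.05, at log2 fold changes of -0.61 for SRSF1 and SRSF3, 0.43 for SRSF5 and 0.62 for CLK1, where 44.6% of all genes were under it. In the other splicing lists no gene was called. The summed markers of epithelium and the immortalised line were 18.5 to 55.5 RPKM in knockdown and 79.7 to 85.0 in control libraries. Their part in these values was not tested.

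LINC00704 knockdown in asynchronous cells gave no call either, against 0.0557% of 8975 genes, and the differences lay between -0.22 and 0.13. At an unadjusted p under 0.05 there were 0 of the 9, beside 1115 of all genes. The authors' deposited table has none of the 9 genes under an FDR of 0.05 there. The asynchronous tables share their 2 control libraries.

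**Figure D5:**
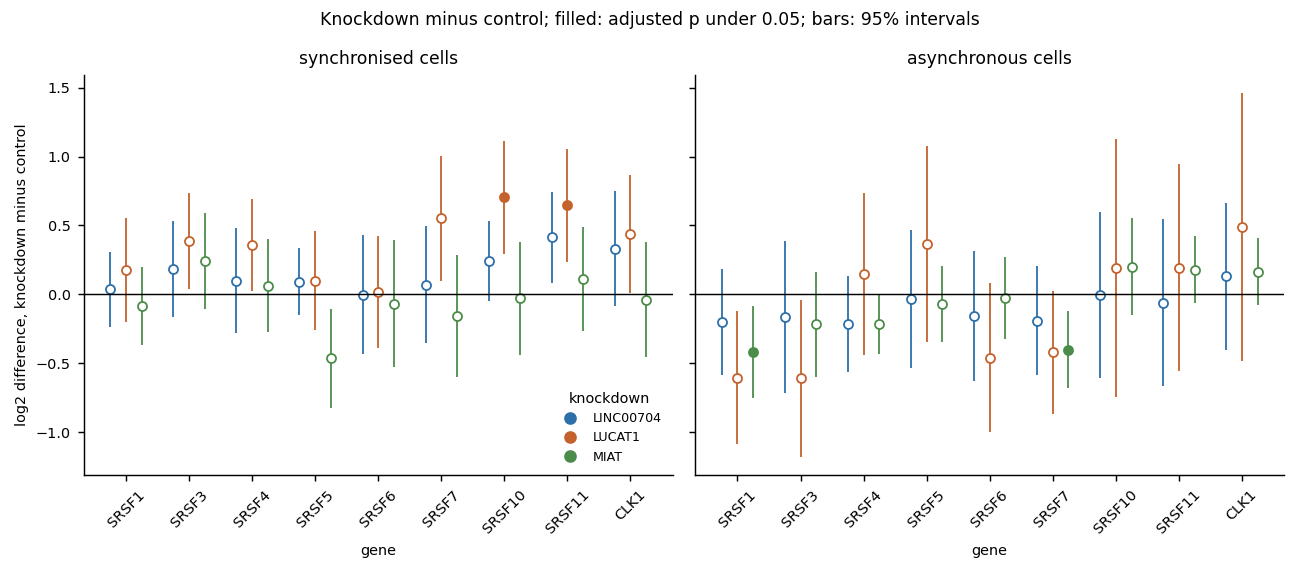
Log2 difference of knockdown minus control (vertical axis) for the 9 genes (horizontal axis) in synchronised (left) and asynchronous cells (right). Points are limma estimates with 95% intervals, coloured by knockdown, and filled where the adjusted p is under 0.05. Filled points are SRSF10 and SRSF11 for LUCAT1 in synchronised cells (0.70 and 0.65) and SRSF1 and SRSF7 for MIAT in asynchronous cells (-0.42 and -0.40).

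Across the 48 libraries of the nuclear and whole-cell tables, each gene centred within its table, most of the genes varied together. Pearson's r was 0.95 for SRSF6 and SRSF7, 0.94 for SRSF3 and SRSF7, 0.91 for SRSF3 and SRSF6, 0.90 for SRSF10 and SRSF11, 0.83 for SRSF10 and CLK1 and 0.80 for SRSF11 and CLK1. SRSF10 also had 0.84 with SRSF6, 0.83 with SRSF3 and 0.81 with SRSF7, and SRSF6 and SRSF11 had 0.83. SRSF4 had r between -0.30 and -0.05 with the others, and SRSF1 and CLK1 had 0.02. Of 596 compared genes those most like CLK1 were FAM111A (r = 0.90), YIPF5 (0.88) and SPCS3 (0.88), and those most like SRSF7 were SNHG1 (0.95), G3BP1 (0.94) and DHX9 (0.94). These values describe libraries that share tables, depth and the number gap, and were not tested.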

How the data were processed

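RNA was sequenced in 91 of the 96 samples used here. The 5 chromatin samples were not analysed. The values are RPKM per gene and library as deposited by the authors, in 10 tables, with the gene Length the authors listed as another column; the 3 asynchronous tables also hold the authors' deposited log2 fold change and FDR p-value per gene. Per the submitters' processing notes, STAR 2.5.3, featureCounts 1.6.1, edgeR, Bowtie2 2.3.4.3 and HOMER 4.10.3 were used, on hg38 (GRCh38); no source used here says which tool made which table. RPKM times length came out as whole multiples of 1 read for nearly all low values (up to 200 reads, within 0.05 read), which gave the sizes of 108 of 111 library columns. Count tests were not run, since the tables hold RPKM.

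Samples were grouped by their titles. Within each table, genes that reached 0.5 RPKM in 2 or more libraries were tested on log2(RPKM + 0.25) with limma 3.58.1 in R 4.3.3 (empirical Bayes with a trend, Benjamini-Hochberg adjustment over all tested genes, threshold 0.05), which understates changes of low genes. The procedure was tested on simulated data. Ratios between tables, which were scaled separately, are differences of group means on that scale and were not tested. Overlap of libraries between groups is stated for single genes, without the share of all genes that did not overlap. Tables and figures were made with Python 3.11.15, numpy 2.4.6, pandas 2.3.3 and matplotlib 3.10.9. Promoter sequences and gene spans are from RefSeq (GRCh38.p14), and the 9 genes were matched by symbol.

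The members and gene lists were chosen with earlier results of these data known. All members are named. From each pathway list up to 3 genes with the smallest adjusted p under 0.05 are named per comparison, and likeness names the 3 other genes with the highest Pearson's r to CLK1 and to SRSF7, centred within table, among genes with a mean of at least 5 RPKM in each of the 4 fraction tables. Libraries of nuclear input RNA with the same number deviated together in all 15 pairs of groups (r between 0.63 and 0.86, median 0.77), so their numbers pair the samples. The lowest r was -0.27 in whole-cell nascent, -0.56 in whole-cell input and -0.31 in nuclear nascent RNA, with medians of 0.42, 0.90 and 0.20. In whole-cell input RNA most pairs of groups thus deviated together as well, but not all. Alternatives were another pseudocount, no filter, quantile normalization, median scaling, the number as a block and leaving out each library.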

Additional observations from a re-analysis of the deposited data

Results flagged for a closer look

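SRSF4 moved in opposite directions in whole-cell and nuclear input RNA. Its log2 difference between windows and asynchronous cells was -0.55 ± 0.35 in whole-cell input RNA and 0.28 ± 0.17 in nuclear input RNA (limma adjusted p = 0.807 and 0.421), a gap of -0.833. In whole cells all 10 window libraries lay on the lower side of the asynchronous mean, and in nuclei all 10 lay above it. Single libraries overlapped in both. Windows reached 5.39 RPKM in whole cells, against 5.23 and 5.57 in asynchronous cells, and started at 5.68 in nuclei, against 4.54 and 5.78. Within numbers 1 and 2 the difference was -0.82 and -0.29 in whole cells and 0.05 and 0.50 in nuclei. The difference between the fractions was not tested, since their tables were scaled separately. It was singled out among 81 pairs of values of the 9 genes.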

How the results depend on the processing

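No result reversed its direction while called. In nuclear input RNA, windows against asynchronous cells gave 1 called gene of the 9, 5 with the replicate block and 0 with quantile normalization or on leaving out a library (0 to 0). There 440 of all genes were called, 3314 with the block, and 0 or 4 without one of the asynchronous libraries. With the block 1 gene was called among its windows and 1 between T8-10 and T0-2, against 0 without it. Nuclear nascent RNA gave 0, 1 with the replicate block (SRSF1, limma adjusted p = 0.0466) and 0 to 1 on leaving out a library. The block changed no other count of called members in the 4 fraction tables. In asynchronous knockdown cells, where the numbers are shared by only 2 pairs, the replicate block gave 0, 0 and 2 called genes for LINC00704, LUCAT1 and MIAT, as without it, and 153, 482 and 3368 of all genes, against 5, 20 and 4016. For the knockdowns in synchronised cells no paired analysis was possible because their columns carry replicate numbers that do not follow those of the sample labels.

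LUCAT1 knockdown in synchronised cells gave 2 called genes, 1 with median scaling, 0 without the S0 and S2 libraries headed 2 (an alternative chosen after seeing the data) and 0 to 4 on leaving out single libraries. Of all genes 2680 were called, and 1034 without both libraries. LINC00704 and MIAT knockdown there gave 0, and 0 to 1 on leaving out a library, and 1035 genes in all were called without 1 S0 library of LINC00704 knockdown, against 2. In asynchronous cells LUCAT1 knockdown gave 0, and 0 to 4 on leaving out a library. MIAT knockdown gave 2, 1 with a pseudocount of 1, 1 with no filter, 0 with median scaling and 0 to 1 on leaving out a library. With no filter 5782 of all genes were called, against 4016.

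Of the 9 genes, 7 lay above the median gene in nuclear over whole-cell input RNA (5 to 8 with 1 library number left out) and 5 in nascent RNA (4 to 5). In nascent over input RNA 4 lay above it in nuclei, 2 with windows alone and 2 to 6 with 1 number left out. In whole cells 7 did, 3 in asynchronous cells alone and 3 to 8 with 1 number left out. The cause of these changes was not tested beyond the smaller number of libraries. Each comparison with asynchronous cells rests on 2 asynchronous libraries.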
